A study of Mus musculus with 4 samples.

Results

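The aminoacyl-tRNA synthetases are the enzymes that join each amino acid to its tRNA. They were followed here as 35 genes of the 18193 genes that had a probe set with a single gene symbol, taken by name from a list of 19 cytosolic and 16 mitochondrial family members. For each gene the probe set with the highest mean log2 signal stood for the gene. All 35 lay above the level filter, so all were among the 12509 genes tested. The cells were immortalized mouse embryonic fibroblasts (MEFs) with both PTIP alleles flanked by loxP sites (PTIP flox/flox). PTIP -/- cells had received a retrovirus carrying Cre recombinase, and PTIP +/+ cells, which keep the flanked alleles intact, had received the vector alone. Loss of PTIP and the presence of Cre therefore cannot be told apart in this design. Per the labels' protocols all cells grew in serum-containing medium and went through puromycin selection. Each genotype gave 2 RNAs, numbered 1 and 2, on 4 Affymetrix arrays.

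A synthetase reads one amino acid and the matching tRNAs, spends ATP to activate the amino acid and hands it to the tRNA, which then enters the ribosome with an elongation factor. Mammalian cells keep one set for the cytosol and another for the mitochondrion, nearly all from separate nuclear genes. Several cytosolic enzymes sit together with 3 scaffold proteins in the multisynthetase complex. Many cytosolic synthetase genes are known targets of ATF4, the transcription factor of the amino acid response, which binds a C/EBP-ATF response element in the promoters of such genes. PTIP, the product of Paxip1, belongs to the MLL3/MLL4 histone methyltransferase complexes, and the series asked which genes depend on it.

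Signals are given throughout for replicates 1 and 2 of PTIP -/-, then for replicates 1 and 2 of PTIP +/+. Paxip1 read 43.5 and 74.6 against 1029.5 and 1040.1, low on both arrays labelled PTIP -/-; whether its probe set lies in the deleted stretch is unknown here. Between 34.1% and 40.6% of probe sets on an array lay below the filter signal of 47.68. All 8 fibroblast markers were above it on average, and their summed signal was 148942.5 and 132307.8 in PTIP -/- and 153619.8 and 159318.5 in PTIP +/+. Thy1, a surface marker of fibroblasts, read 14822.9 and 1500.7 against 16080.1 and 239.2, so it differed far more between the replicate numbers than between the genotypes. No marker of another cell type was listed at 0. The 4 muscle markers, of which 1 passed the filter, summed to 184.2 and 166.3 against 163.1 and 109.9, with no overlap. The macrophage and blood markers (845.3 and 560.5 against 642.1 and 460.4) were higher in PTIP -/- within each number but overlapped. The epithelial markers (789.4 and 805.6 against 733.0 and 1420.3), the endothelial markers (300.1 and 202.2 against 169.0 and 259.9) and the nerve and glia markers (1555.6 and 571.2 against 996.4 and 1272.2) also overlapped between the genotypes. Their part in the differences below was not tested. In RNA from whole cultures, fewer cells of a type and less RNA per cell cannot be told apart.

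Cytosolic synthetases were slightly lower in PTIP -/- on most probe sets, and the mitochondrial enzymes were spread on both sides of 0. Of the 19 cytosolic genes, 17 were lower on average, as were 43.9% of all genes tested. The median log2 difference (PTIP -/- minus PTIP +/+) of the 19 was -0.20, beside 0.05 over all genes tested. Within replicate number 1 all 19 were lower (median -0.23), against 46.3% of genes, and within number 2 it was 14 of the 19 (median -0.21), against 45.6%. No member passed in limma at an adjusted p under 0.05, and the adjusted p was 0.999 for each. At an unadjusted p under 0.05 the count was 0 of 35 members, beside 118 lower and 168 higher genes of the 12509, which are 0.943% and 1.34%, with 0% called after adjustment. For one gene, 2 RNAs per genotype allow an exact two-sided permutation p of 0.333 at the lowest. The labels do not say whether the numbered RNAs came from separate cultures, so p-values and errors measure only the spread between these RNAs.

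Within both replicate numbers, each of which sets a single array against a single array and carries no test, 14 of the 19 cytosolic genes were lower and 0 were higher. Over all genes tested, 25.8% were lower within both numbers and 33.9% higher. The share depends on signal level. Among the 3402 genes at or above the mean signal of Farsa, the dimmest cytosolic member, 37.5% were lower within both numbers and 26.7% higher, around a median difference of -0.03. On average 54.8% of these brighter genes were lower, 58.3% within number 1 and 52.4% within number 2. Differences of a given size were counted next. A difference of at least 0.32 log2 downward within both numbers was read for 2 of the 19, against 5.96% of all genes tested and 5.82% of the brighter ones. None of the 19 was that far upward, against 10.3% of all genes but only 134 of the 3402 brighter ones. At least 0.58 log2 lower within both numbers were 0 of the 19, against 2.21% of all genes and 57 of the 3402. These counts hung on the scaling: with arrays centred on their medians, 11 of the 19 were at least 0.32 log2 lower, against 14.4% of all genes, and 2 at least 0.58 lower, against 4.44%. The 2 replicates of PTIP +/+ differed by a median size of 0.33 log2 over the 19 genes and those of PTIP -/- by 0.26, both wider than the median genotype difference. The cytosolic median was -0.06 without PTIP -/- replicate 2 and -0.08 without PTIP +/+ replicate 1. In each case 12 of the 19 genes were lower, beside 43.8% and 45.2% of all genes tested. Without PTIP +/+ replicate 2 the cytosolic median was -0.33, with 19 lower, beside 47.7% of all genes. Without any one array, the genotypes no longer hold the same replicate numbers.

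**Figure D1:**
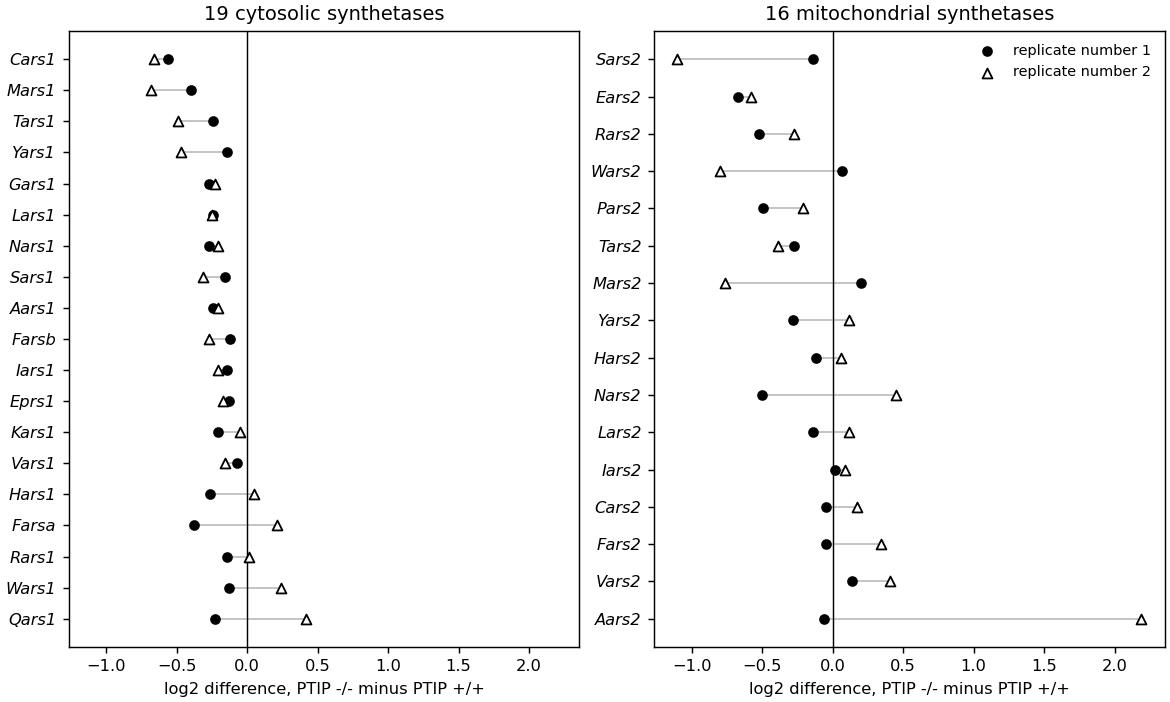
Log2 difference in signal, PTIP -/- minus PTIP +/+, within replicate number 1 (filled circles) and number 2 (open triangles) for the 19 cytosolic and 16 mitochondrial synthetases, each point being 1 array against 1 array. All 19 cytosolic genes lie below 0 in number 1 and 14 in number 2, while 9 of the 16 mitochondrial genes lie on opposite sides of 0 in the 2 numbers.

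Cars1 and Mars1 stood farthest from 0 among the cytosolic genes. Cars1, the cysteinyl-tRNA synthetase, read 1289.0 and 1321.9 against 1903.5 and 2092.3. Both PTIP -/- arrays lay below both PTIP +/+ arrays, by 1.48-fold in number 1 and 1.58-fold in number 2. On the log2 scale the genotype means were 10.35 ± 0.03 and 10.96 ± 0.10 (SD, n = 2 each), a log2 difference of -0.61 ± 0.25 (SE, limma unadjusted p = 0.064, adjusted p = 0.999). Its second probe set was dim, at 12.8 and 22.4 against 73.3 and 16.3, and gives no direction.

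Mars1, the methionyl-tRNA synthetase, charges both the tRNA that starts a protein and the one that extends it, and sits in the multisynthetase complex. Its signals were 3190.6 and 2047.2 against 4213.2 and 3270.1. The genotypes did not overlap, although PTIP -/- replicate 1 and PTIP +/+ replicate 2 lay close together. The fold lower was 1.32 in number 1 and 1.60 in number 2, with mean log2 signals of 11.32 ± 0.45 against 11.86 ± 0.26 (SD, n = 2 each) and a difference of -0.54 ± 0.35 (SE, limma adjusted p = 0.999). The difference of Mars1 was -0.22 without PTIP -/- replicate 2 and -0.86 without PTIP -/- replicate 1. In this fit, which has no term for replicate number, the 95% interval of Mars1, -1.49 to 0.42, contains 0. So does that of every other member. With replicate number as a term, Cars1 and Ears2 had an unadjusted p under 0.05 (limma adjusted p = 0.601 for both).

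Among the other enzymes of the multisynthetase complex, differences were smaller and split at the low end. Lars1, which charges leucine tRNA, read 3248.7 and 2887.4 against 3847.9 and 3435.2, lower by 1.18-fold and 1.19-fold in the 2 numbers. Iars1, for isoleucine, was 1.10-fold and 1.16-fold lower on its brightest probe set. Its second probe set read 3075.1 and 2452.8 against 4227.9 and 3887.1, with log2 differences of -0.46 and -0.66, so the size of the difference depended on the probe set. Eprs1, the fused enzyme for glutamate and proline, differed by -0.13 and -0.17 in the 2 numbers. Another of its probe sets gave -0.26 and -0.40, and one more gave 0.23 and -0.07. Kars1, for lysine, which also serves the mitochondrion, differed by -0.21 and -0.05. Rars1, for arginine, read 4228.2 and 3397.6 against 4662.4 and 3372.2, with nearly equal signals in number 2. Qars1, for glutamine, was lower by 1.18-fold in number 1 and higher by 1.34-fold in number 2. A second, nearly as bright probe set of Qars1 was higher in both, at 0.29 and 0.35. The mean difference of Qars1 was 0.09 and became -0.09 when arrays were centred on their medians. Over the 7 complex enzymes the median was -0.15, with 5 lower within both numbers, against 25.8% of all genes tested and 37.5% of the brighter ones.

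The 3 scaffold proteins of the complex did not move as one. Aimp1, which also circulates as a cytokine precursor, read 2299.3 and 2309.7 against 3081.8 and 2882.6, a log2 difference of -0.37 with 95% interval -1.03 to 0.29. All PTIP -/- signals of Aimp1 lay below all PTIP +/+ signals. Aimp2 read 2906.4 and 3167.3 against 3457.6 and 3126.0, and Eef1e1 read 3589.3 and 2401.7 against 4012.7 and 2294.0. Both were lower in number 1 and within 0.07 log2 of 0 in number 2.

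Of the 12 cytosolic synthetases outside the complex, 9 were lower within both numbers, around a median of -0.23. Of all genes tested 25.8% were lower within both, and of the brighter ones 37.5%. Tars1, for threonine, read 2721.5 and 2193.6 against 3220.6 and 3077.9, a log2 difference of -0.37 ± 0.26 (SE). Its genotypes did not overlap. Yars1, for tyrosine, read 1862.5 and 1096.7 against 2054.3 and 1521.5, and its genotypes overlapped because both number 2 arrays were dimmer. Several bright members gave nearly the same small difference in both numbers. Gars1, the glycine enzyme of cytosol and mitochondrion, read 6597.3 and 7383.9 against 7963.7 and 8657.1, lower by 1.21-fold and 1.17-fold. Aars1, for alanine, read 5548.1 and 5655.7 against 6532.3 and 6520.2, lower by 1.18-fold and 1.15-fold. Its replicates differed by 0.03 log2 in PTIP -/- and by 0.00 in PTIP +/+ to 2 decimals, less than the genotypes did. Nars1, for asparagine, was lower by 1.21-fold and 1.15-fold, and Sars1, for serine, by 1.12-fold and 1.24-fold. A second probe set of Aars1, of Nars1 and of Sars1 was also lower within both numbers, at -0.22 and -0.43, at -0.16 and -0.14, and at -0.35 and -0.16.

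The remaining cytosolic enzymes gave less steady values. Farsa and Farsb form the phenylalanine enzyme as its alpha and beta chains. Farsa read 1341.8 and 1272.0 against 1746.6 and 1098.6, lower in number 1 and higher in number 2. Farsb read 2160.3 and 1435.8 against 2350.0 and 1735.0, and the other 3 of its probe sets were higher or level in number 2, at 0.41, 0.00 and 2.13. Vars1, for valine, was lower by 1.05-fold and 1.12-fold. Hars1, for histidine, was lower by 1.20-fold in number 1 and higher by 1.03-fold in number 2, and its other probe set was level or higher, at 0.00 and 0.13. Wars1, for tryptophan, whose gene is also induced by interferon gamma, read 2727.1 and 1853.6 against 2991.2 and 1573.5. Its mean difference was 0.05 on that probe set and -0.20 on the brightest probe set that is not of a class open to cross-hybridization, and -0.13 with arrays centred on their medians, so Wars1 has no settled direction.

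**Figure D2:**
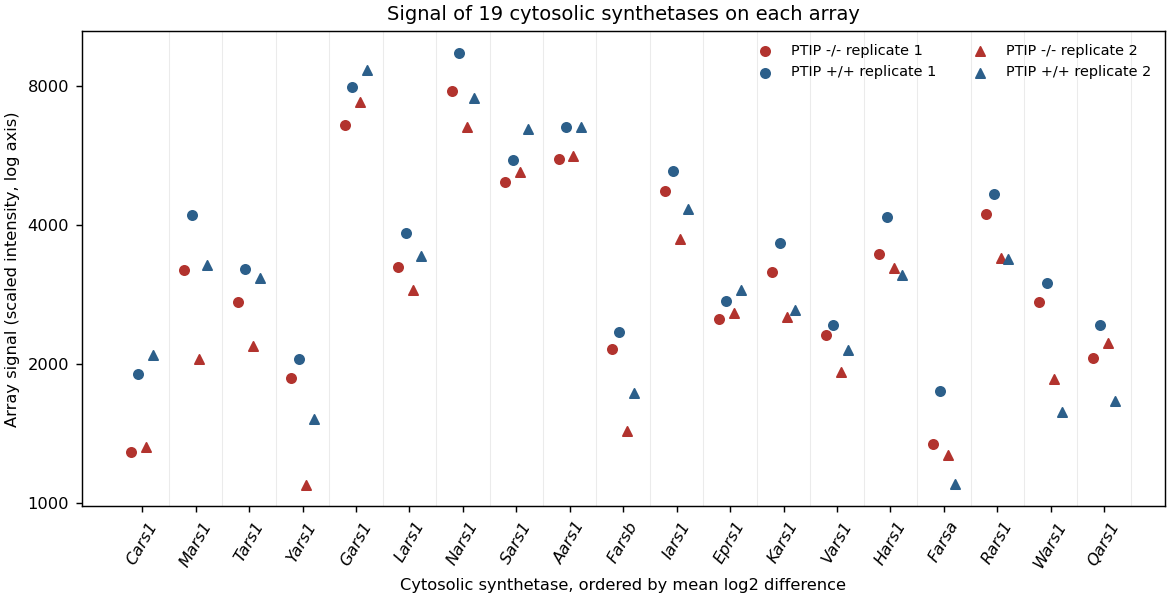
Array signal (scaled intensity, log axis) of the 19 cytosolic synthetases on each of the 4 arrays, with PTIP -/- in red, PTIP +/+ in blue, circles for replicate 1 and triangles for replicate 2. Cars1, Mars1 and Tars1 have both red points below both blue points, and for 11 of the 19 genes the genotypes overlap.

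In all, 8 of the 19 cytosolic genes had both PTIP -/- arrays below both PTIP +/+ arrays, namely Aars1, Cars1, Eprs1, Gars1, Lars1, Mars1, Sars1 and Tars1, and 0 had the reverse. The same held for 12.1% of all genes tested (16.6% in the reverse direction), and for 18.2% of the 3402 brighter genes (12.3% in reverse). Over every probe set of the 19 genes that passed the level filter, 38 of 40, the count was 21 lower within both numbers, 2 higher and 15 split between the numbers, with a median difference of -0.16. The same count over all probe sets was not made, and some of these probe sets share a gene. The count alone therefore does not set the members apart.

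The cytosolic genes were also divided by a list of known ATF4 targets, which holds 11 of the 19. Of the 11 cytosolic synthetases listed as ATF4 targets from general knowledge, 10 were lower within both numbers, the exception being Wars1, against 25.8% of all genes tested and 37.5% of the brighter ones. The median was -0.24 in number 1 and -0.23 in number 2. Of the 8 not on that list, 4 (Farsb, Kars1, Lars1 and Vars1) were lower within both numbers, with medians of -0.22 and -0.02. In number 1 every gene of both subsets was lower, and in number 2 it was 10 of the 11 and 4 of the 8, from 1 array against 1 array. The difference between the subsets was not tested. The list was chosen with earlier results of these data known, so it is no independent evidence of a split.

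A C/EBP-ATF response element was searched for as TGATGNAA, on either strand, in the RefSeq promoter windows of assembly GRCm38.p6, which run from 250 bases before a gene's start to 50 bases from it. A window was at hand for 26 of the 35 members. No window was held for Cars1, Hars1, Lars1, Nars1, Rars1, Vars1, Wars1, Hars2 and Pars2. The element was found in 5 of the 26: Aars1, Gars1, Iars1, Tars1 and Yars1, all cytosolic. That is 5 of 12 cytosolic and 0 of 14 mitochondrial members with a window, beside 4.51% of 27025 genes and 3.97% of 32851 windows. All 5 were lower within both numbers, as were 14 of the 19 cytosolic members. Eprs1, Farsb, Kars1, Mars1 and Sars1, with a window and no match, were also lower within both. All 5 genes with the element are on the list of ATF4 targets, 8 of which had a window. A match is a description of letters, not a binding site shown in these cells. The stretches that hold it are shown so that the element can be seen in place, 5′ to 3′ on the gene's strand, with matches in capitals. For Aars1, Gars1 and Tars1 they are the 250 bases before the start, for Iars1 and Yars1 the first 30 bases from the start, and for Mars1, the cytosolic member with a window that lay farthest from 0, the 250 bases before the start, which hold no match.
Aars1 (chr8:111033592-111033841, plus strand): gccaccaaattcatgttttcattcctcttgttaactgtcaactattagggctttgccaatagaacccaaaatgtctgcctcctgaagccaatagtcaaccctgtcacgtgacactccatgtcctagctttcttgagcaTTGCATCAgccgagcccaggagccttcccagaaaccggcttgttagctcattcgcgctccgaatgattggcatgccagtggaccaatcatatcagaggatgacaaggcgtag
Gars1 (chr6:55037751-55038000, plus strand): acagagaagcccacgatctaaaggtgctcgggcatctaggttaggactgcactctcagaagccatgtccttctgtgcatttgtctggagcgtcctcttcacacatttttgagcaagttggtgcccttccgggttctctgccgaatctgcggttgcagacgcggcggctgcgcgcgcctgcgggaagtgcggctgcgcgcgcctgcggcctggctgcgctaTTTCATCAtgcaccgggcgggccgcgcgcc
Tars1 (chr15:11399659-11399908, minus strand): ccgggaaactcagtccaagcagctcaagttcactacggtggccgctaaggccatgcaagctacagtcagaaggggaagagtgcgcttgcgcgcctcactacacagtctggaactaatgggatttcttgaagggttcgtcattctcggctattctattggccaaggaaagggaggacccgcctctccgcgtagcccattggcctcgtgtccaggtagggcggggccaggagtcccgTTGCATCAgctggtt
Iars1 (chr13:49682130-49682159, plus strand): gtcagtaTTGCATCAcctccagacgcggaa
Yars1 (chr4:129189903-129189932, plus strand): agcTGATGCAAcccgacgggactagcgtga
Mars1 (chr10:127311787-127312036, minus strand): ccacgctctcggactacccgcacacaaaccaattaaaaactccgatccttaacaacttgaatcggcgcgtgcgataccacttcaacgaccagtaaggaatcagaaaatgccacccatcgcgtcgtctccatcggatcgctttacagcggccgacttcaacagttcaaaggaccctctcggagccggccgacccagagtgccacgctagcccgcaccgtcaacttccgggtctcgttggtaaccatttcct

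The matches lay at different places. Those of Aars1, Gars1 and Tars1 began 112, 30 and 15 bases before the start, and Aars1 held another after the start. Aars1, Iars1 and Tars1 shared the letters TTGCATCA, of which the TGATGCAA of Yars1 is the reverse complement. Gars1 had TTTCATCA, as had the match of Aars1 after the start. The genotype differences of the 5 genes were -0.22, -0.25, -0.37, -0.18 and -0.31 log2 for Aars1, Gars1, Tars1, Iars1 and Yars1. Among cytosolic members with a window and no match, Mars1 differed by -0.54, Sars1 by -0.23, Farsb by -0.20 and Eprs1 by -0.15. Kars1 differed by -0.13, Farsa by -0.08 and Qars1 by 0.09. Whether these letters go with the size of the difference was not tested.

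The 16 mitochondrial synthetases, which charge the tRNAs encoded by mitochondrial DNA, showed no common direction. Their median difference was -0.06 on average, -0.13 in number 1 and 0.08 in number 2. On average 11 were lower and 5 higher, beside 43.9% of all genes tested that were lower. Within both numbers 5 were lower and 2 higher, and 9 were split, beside 25.8% of all genes lower and 33.9% higher. The counts moved with the scaling: with arrays centred on their medians, 11 were lower within both numbers, beside 43.1% of all genes. The mitochondrial median was then -0.23 and that of all genes -0.13. Without PTIP +/+ replicate 2 the median was -0.24, and without PTIP -/- replicate 2 it was -0.01. Mitochondrial and cytosolic differences were not tested against each other.

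Ears2 was the 1 mitochondrial member of the 16 at least 0.32 log2 lower within both numbers, beside 5.96% of all genes tested. With arrays centred on their medians the count was 5 of the 16, beside 14.4% of all genes. Above the 60th percentile of signal, which Ears2 did not reach, it was 0 of 13, beside 6.06%. The enzyme loads glutamate, also onto the glutamine tRNA of the mitochondrion. It read 126.8 and 91.9 against 201.4 and 137.4, with no overlap, and differed by -0.67 log2 in number 1 and -0.58 in number 2. The genotype means on the log2 scale were 6.75 ± 0.33 and 7.38 ± 0.39 (SD, n = 2 each), a difference of -0.62 ± 0.35 (SE, limma adjusted p = 0.999). The difference of Ears2 was -0.35 without PTIP +/+ replicate 1 and -0.90 without PTIP +/+ replicate 2, and -1.18 with the mean of its 4 probe sets, of which 2 lay below the filter. A second probe set that passed the filter was split, at 74.9 and 61.6 against 65.3 and 118.1.

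Sars2, the mitochondrial serine enzyme, read 247.3 and 137.4 against 272.5 and 293.9. PTIP -/- replicate 2 was the low array, so that the fold lower was 1.10 in number 1 and 2.14 in number 2, with a mean difference of -0.62 ± 0.38 (SE, limma adjusted p = 0.999). Without PTIP -/- replicate 2 the difference of Sars2 was -0.19, and without PTIP -/- replicate 1 it was -1.04. Pars2, for proline, read 199.2 and 221.9 against 279.1 and 256.9, without overlap, a difference of -0.35 ± 0.25 (SE). Rars2, for arginine, differed by -0.52 and -0.27 in the 2 numbers and Tars2, for threonine, by -0.27 and -0.39. Both overlapped between the genotypes.

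On the higher side stood Aars2, Vars2 and Fars2. Aars2, the mitochondrial alanine enzyme, read 208.7 and 194.8 against 218.0 and 42.8. A single array made the difference: PTIP +/+ replicate 2 lay below the filter signal, and the other 3 arrays were nearly level. The gene was 1.04-fold lower in number 1 and at least 4.09-fold higher in number 2 once that signal was raised to the filter. Its mean difference of 1.06 ± 0.85 (SE, limma adjusted p = 0.999) became -0.11 without PTIP +/+ replicate 2. Vars2, for valine, read 235.1 and 243.2 against 213.1 and 182.9, with both PTIP -/- arrays above both PTIP +/+ arrays and a difference of 0.28 ± 0.25 (SE). Centring the arrays brought Vars2 to 0.10, and leaving out PTIP +/+ replicate 2 brought it to 0.17. A dimmer probe set of Vars2 was also higher in both numbers, at 0.42 and 0.88. Fars2, for phenylalanine, read 470.6 and 514.6 against 486.1 and 406.4, a difference of 0.15 ± 0.26 (SE) that was -0.03 with centred arrays.

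The other mitochondrial enzymes lay between -0.37 and 0.06 on average. Iars2, for isoleucine, was steady across the arrays, at 663.0 and 676.7 against 653.7 and 634.2. Its difference of 0.06 had a 95% interval from -0.60 to 0.72 and was -0.12 with centred arrays. Wars2, for tryptophan, and Mars2, for methionine, were higher in number 1 and lower in number 2, and Mars2 was dim, at 71.5 and 30.3 against 62.4 and 51.2. Nars2, for asparagine, read 225.2 and 453.5 against 319.5 and 330.9, so its 2 PTIP -/- arrays lay on either side of PTIP +/+. Cars2, Hars2, Lars2 and Yars2 were each lower in number 1 and higher in number 2, by at most 1.22-fold. Of the 32 probe sets of the mitochondrial genes, 27 passed the filter, of which 7 were lower within both numbers, 5 higher and 15 split. Here too no count over all probe sets was made for comparison.

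For 13 amino acids both a cytosolic and a mitochondrial enzyme bore the same letter. In 8 of the 13 pairs both genes were lower on average, and in 5 they lay on opposite sides of 0. With 17 of the 19 cytosolic and 11 of the 16 mitochondrial genes lower on average, many such pairs arise from these totals alone. A tie between the enzymes of a pair was not tested. Threonine gave -0.37 for Tars1 and -0.33 for Tars2, and methionine -0.54 for Mars1 and -0.28 for Mars2. Cysteine gave -0.61 for Cars1 and 0.06 for Cars2, of which the second turned to -0.12 with centred arrays. Aars1 and Aars2 were among the opposite pairs only through the 1 dim array of Aars2.

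**Figure D3:**
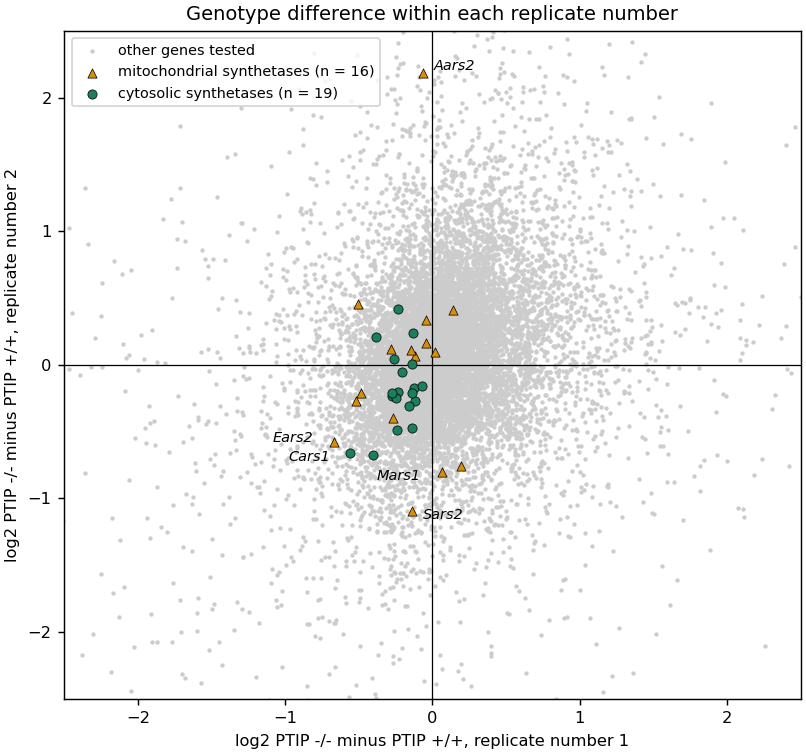
Log2 difference, PTIP -/- minus PTIP +/+, within replicate number 1 (horizontal) and number 2 (vertical) for the 12509 genes tested, with cytosolic synthetases as green circles and mitochondrial ones as orange triangles. The cytosolic genes gather left of and mostly below 0, with Cars1 at -0.56 and -0.66, while Aars2 lies at -0.06 and 2.19. Beyond the limit of 2.5 on either axis, 212 genes are not drawn.

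Replicate number weighed on the synthetases as much as genotype. The cytosolic genes were dimmer in number 2 than in number 1 by a median of 0.26 log2 in PTIP -/- (a difference of -0.26) and 0.33 in PTIP +/+ (-0.33), against -0.04 and -0.03 for all genes tested. Wars1 differed most among them in PTIP +/+, by -0.93, and Yars1 in PTIP -/-, by -0.76. For 11 of the 19 cytosolic and 11 of the 16 mitochondrial genes the genotype difference was smaller than the mean difference between the replicates. The same was true of 8921 of the 12509 genes.

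Other genes of tRNA charging lay on both sides of 0. Of the 13 accessory, editing and amidation genes, 5 were lower within both numbers and 4 higher, with a median of -0.08. Of all genes tested, 25.8% were lower and 33.9% higher. Xpot, the exporter that carries tRNAs out of the nucleus, read 4270.7 and 2409.9 against 4999.4 and 3306.3, and Aarsd1, an editing factor related to the alanine enzyme, was 1.42-fold lower on average. Gatb, a subunit of the mitochondrial amidotransferase that completes what Ears2 begins, read 125.9 and 129.2 against 99.1 and 85.8, higher in both numbers, and Dtd1, which clears D-amino acids from tRNAs, was 1.34-fold higher. The 5 cytosolic elongation factors tested had a median of 0.01, and Eef1a1, which carries charged tRNA to the ribosome, read 32936.3 and 33991.8 against 33393.3 and 39275.4. Eef1g was not analysed here, since its probe sets carry several symbols. The 4 mitochondrial elongation factors were all lower on average, from -0.19 to -0.09 with a median of -0.15, and 2 of them within both numbers. Of all genes tested, 43.9% were lower on average and 25.8% within both. No gene of these lists passed in limma at an adjusted p under 0.05, and 0 did at an unadjusted p under 0.05.

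The ATF4 genes of amino acid supply had a median difference of -0.59, beside -0.20 for the cytosolic synthetases, a difference between lists that was not tested. Of 15, 14 were lower within both numbers, against 25.8% of all genes tested, and 12 by at least 0.32 log2, against 5.96%. The exception was Ddit3, higher at 0.14 in number 1 and 0.08 in number 2. Asns, asparagine synthetase, read 4795.4 and 4386.8 against 7684.0 and 7040.7, whereas Nars1, which loads the same amino acid, read 7807.3 and 6516.3 against 9436.9 and 7520.3. Psat1, of serine synthesis, was 2.07-fold lower on average and Sars1 1.18-fold lower. Atf4 itself read 7701.8 and 6664.5 against 8253.7 and 9582.0. None of the 15 passed after adjustment (limma adjusted p = 0.999 for each). An unadjusted p under 0.05 was found for 3 lower genes, beside 0.943% of all genes tested. The list was drawn up with the lower level of such genes in these arrays already known, so it is no independent evidence of its direction.

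**Figure D4:**
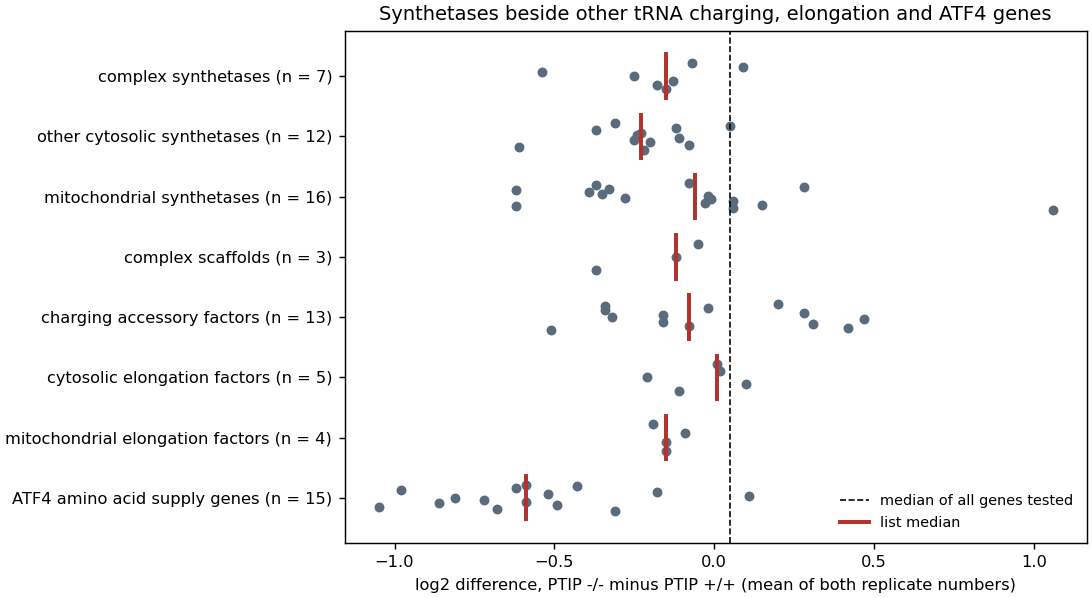
Mean log2 difference, PTIP -/- minus PTIP +/+, of each gene (points) in 8 lists, with the list median as a red bar and the median of all 12509 genes tested, 0.05, as a dashed line. The medians are -0.15 and -0.23 for the 2 groups of cytosolic synthetases, -0.06 for the mitochondrial ones and -0.59 for the ATF4 genes of amino acid supply.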

How the data were processed

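The authors deposited linear array intensities for 45101 probe sets. Per the submitters' processing notes RMA was used, with no version; but the deposited intensities are linear and on each of the 4 arrays their mean, trimmed by 2% at either end, was 500. Background correction and probe summary beyond this are not stated in the labels.

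Intensities were taken to log2, the single 0 set to 0.1. Without 64 control probe sets, 34945 probe sets had 1 gene symbol. Symbols were updated through RefSeq gene numbers (34741 matched, GRCm38.p6); 16 members came under older symbols. Genes whose brightest probe set reached the 40th percentile of all means (a signal of 47.68) were tested with limma 3.58.1 under R 4.3.3 (lmFit, eBayes, no covariate, Benjamini-Hochberg over 12509 genes), which was tested on simulated data. SE and 95% intervals are those of the moderated fit.

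Members named with full statistics were those at least 0.32 log2 different one way within both numbers, or with an unadjusted p under 0.05, and the 3 farthest in each direction. From each list of other genes the rule took the brightest and the farthest members, not all of which are described. Of the ATF4 supply genes, Asns and Atf4 were named outside this rule. Phgdh, the brightest of them, and Slc7a11 and Psph, among the farthest, were left out. Members and lists were chosen with earlier results of these data known. The alternatives tried were 2 other scalings, 2 other filters, 2 other choices of probe set, raising low signals to the filter, a variance trend, the replicate block and leaving out each array. Gene names of probe sets follow the platform annotation. Signals of different probe sets were ranked only to choose a gene's probe set, to filter and to set the group of brighter genes, and give no order of transcript levels.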

Additional observations from a re-analysis of the deposited data

How the results depend on the processing

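In limma no gene and no synthetase passed an adjusted p of 0.05 under any alternative that was run. With the replicate block, which fits the replicate number as a term, 0 of 12509 genes passed and 982 had an unadjusted p under 0.05, against 286 without it. Cars1 and Ears2 were then the 2 members under 0.05 unadjusted, both at a limma adjusted p of 0.601. In other settings 1 member at a time had an unadjusted p under 0.05. It was Cars1 with centred arrays, the 60th percentile filter or the variance trend (limma adjusted p = 0.999 in each), Ears2 with averaged probe sets, which did not pass after adjustment, and Aars2 without PTIP +/+ replicate 1 (limma adjusted p = 0.790). The same-numbered samples' deviations correlated at 0.686 across genes, but with 2 pairs the samples share only a number.

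Centring arrays on their medians moved the median of all genes from 0.05 to -0.13 and the split of genes at an unadjusted p under 0.05 from 168 higher and 118 lower to 76 and 204. The medians became -0.37 for the cytosolic and -0.23 for the mitochondrial synthetases. Within both numbers 11 mitochondrial genes were lower, beside 43.1% of all genes. Centring shifts the difference of every gene by the same amount, so the cytosolic median relative to all genes stayed at -0.25 by construction. With quantile normalization that relative median was -0.17. Single genes turned sign with centred arrays: Qars1 to -0.09, Wars1 to -0.13, Cars2 to -0.12 (-0.02 with quantile normalization), Fars2 to -0.03 and Iars2 to -0.12. Averaging all probe sets of each gene turned Farsa to 0.00, Farsb to 0.11, Wars1 to -0.06 and Yars2 to 0.07. Leaving aside probe sets open to cross-hybridization turned Wars1 to -0.20, and raising low signals to the filter turned Mars2 to 0.05. With all arrays kept, 15 of 19 cytosolic and 11 of 16 mitochondrial genes kept their direction under these 9 settings. The other level filters, the variance trend and the replicate block leave each gene's log2 difference unchanged by construction. Those settings could not turn a direction, so only the other scalings, the other choices of probe set and the raising of low signals tested it.

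Leaving out each array in turn gave a cytosolic median of -0.33 to -0.06 and a mitochondrial median of -0.24 to -0.01. Over all alternatives 10 cytosolic and 6 mitochondrial genes kept their direction. The genes that turned had these ranges without one array: Kars1 -0.37 to 0.11, Qars1 -0.18 to 0.36, Rars1 -0.30 to 0.17, Farsa -0.42 to 0.25, Farsb -0.49 to 0.10, Hars1 -0.32 to 0.10, Vars1 -0.25 to 0.02, Wars1 -0.41 to 0.51, Yars1 -0.69 to 0.08, Aars2 -0.11 to 2.24, Cars2 -0.13 to 0.25, Hars2 -0.34 to 0.28, Lars2 -0.35 to 0.32, Mars2 -0.90 to 0.34, Nars2 -0.53 to 0.48, Tars2 -0.66 to 0.00, Yars2 -0.33 to 0.17. The number of arrays limits the precision. The cause of these turns was not tested.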
